A study of Mus musculus with 6 samples.

Results

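The genes described here are the Hox genes of clusters A, B, C and D, chosen as all genes whose symbol in the platform annotation is Hoxa, Hoxb, Hoxc or Hoxd followed by a paralog number. Of 39 such genes in the mouse RefSeq gene table, 31 had a probe set that names no other gene, with 37 probe sets in all, out of 12393 genes and 22626 probe sets on the array. They were measured in a mouse cell line called PPP3R1 on 6 Affymetrix arrays, 3 from cells starved for 6 h and 3 from control cells kept in normal medium. PPP3R1 is also the name of the regulatory subunit of the phosphatase calcineurin, and the labels neither describe a change to it in these cells nor name the starvation medium. The titles and the design text take the control cells from the same line, whereas the growth and treatment protocols speak of wild-type mouse embryonic fibroblasts. If the protocols hold, line and starvation cannot be told apart, and this applies to every difference given here, and most of all to genes that differ between fibroblasts of different origin. The titles call the arrays biological replicates, but separate cultures are not stated, so a p-value here reflects only how far these samples spread, which may be technical.

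Hox genes encode homeodomain transcription factors. Within each cluster they lie in the order in which they are expressed from head to tail in the embryo, low paralog numbers towards the head and high numbers towards the tail and the limb ends. Genes with the same number in different clusters are paralogs with closely related proteins. Fibroblasts in culture keep much of the Hox pattern of the body site they came from, which makes these genes a record of position, and retinoic acid, Polycomb and Trithorax proteins are the classical regulators of the clusters.

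Values are log2 levels, changes are starved minus control on that scale, and errors of changes are standard errors from limma with n = 3 per group. A gene is called higher or lower where limma's p, with Benjamini-Hochberg adjustment across the whole array, is under 0.05, and dim where both group means are under 5. A level on these arrays also depends on the probes, so levels of different genes are not ranked. Correlations over all probe sets were 0.998 within groups and 0.986 to 0.988 between them, and no 2 arrays were identical. The difference between the 3 prime and 5 prime control probe sets lay between -0.11 and 0.00 (log2) in control and between -0.15 and -0.11 in starved arrays for Gapdh, and between 0.03 and 0.08 in both groups for beta-actin. Of 14 fibroblast markers 13 were above the dim level, among them Col1a1, Vim and Pdgfra, while Thy1 was dim (4.80 in control and 4.87 in starved cells). The mean level of this list was 12.06 to 12.08 in control and 12.19 to 12.20 in starved arrays. Of its members 6 were called higher (42.9%) and 2 lower (14.3%), against 20.8% and 20.1% of all genes. Its part in the Hox changes was not tested, nor was that of the Gapdh difference. The endothelial markers were dim in 10 of 10 genes, with Cdh5 at 4.24 and 4.23. Epithelial markers were dim in 9 of 12 genes, with Epcam at 4.54 and 4.42. Of the leukocyte markers 5 of 11 were dim, among them Ptprc (3.07 and 3.03). Cd68 (6.25 and 6.68) and Lyz2 (6.07 and 6.31) were called higher (18.2% of the list) and 2 others lower (18.2%). The list's mean level was 4.85 to 4.99 in control and 4.87 to 4.88 in starved arrays. Muscle, neural and pluripotency markers were dim in 6 of 10, 6 of 12 and 8 of 12 genes, with Myod1 at 4.75 in both groups. Among the muscle markers 1 was called higher (10%) and 0 lower. The mean level of that list was 4.52 to 4.66 in control and 4.67 to 4.72 in starved arrays. Among the neural markers Map2 (5.50 and 6.24) and Tubb3 (6.26 and 6.72) were called higher (16.7%), and 1 dim gene was called lower (8.33%). Pou5f1 was dim (3.46 and 3.56), although Nanog rose from 4.60 to 5.78.

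The same 19 Hox genes lay above the dim level in starved and in control cells. They were mostly paralogs 2 to 9 of clusters A, B and C, whereas 5 of 7 genes of cluster D and 8 of 9 of the paralogs 10 to 13 were dim. Within this pattern 5 Hox genes were called higher and 7 lower, in no case by more than 0.89. Of all genes on the array 20.8% were called higher and 20.1% lower. The Hox shares of 16.1% and 22.6% lie near these. Of the 19 Hox genes that were not dim 11 were called (57.9%), against 54.3% of all genes that were not dim, and their median absolute change was 0.25 against 0.23. By cluster, the calls were as follows: in cluster A 4 genes were called lower and 0 higher (2 not dim did not pass; at an unadjusted p under 0.05, 5 were lower and 0 higher), in cluster B 3 higher and 2 lower, in cluster C 2 higher and 1 lower, and in cluster D 0 either way. No test of the difference between clusters was made. In bulk RNA, fewer cells that express a gene and less of its RNA per cell cannot be told apart.

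**Figure D1:**
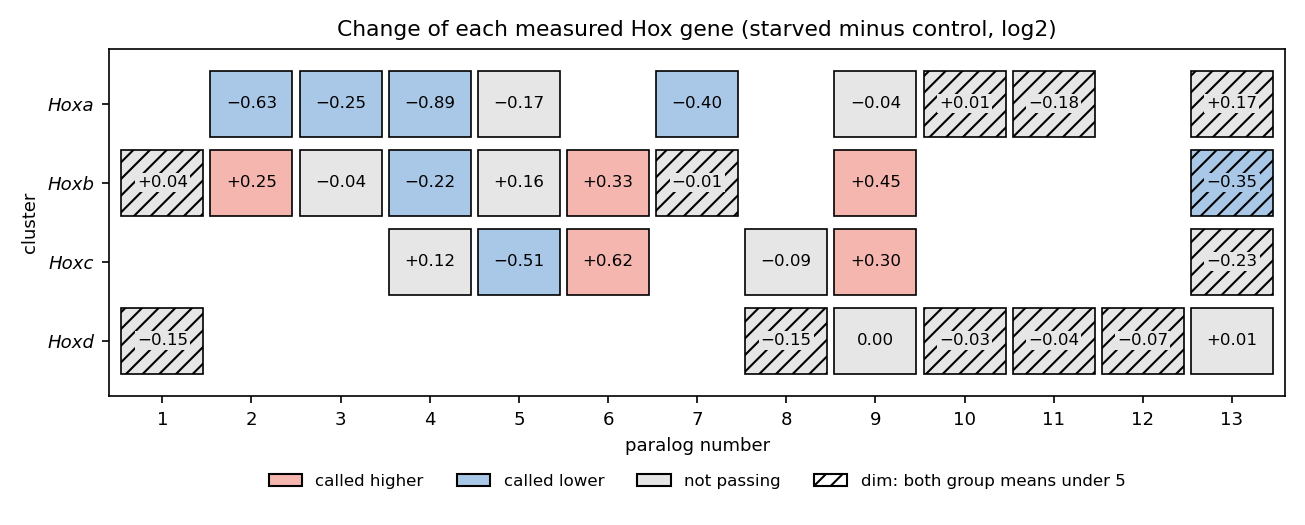
Each box is a Hox gene with a probe set of its own, placed by cluster from top to bottom and by paralog number from left to right, with its change in log2 units written in it. Colour gives the call and hatching marks the 12 dim genes, which fill most of cluster D and of paralogs 10 to 13; blank places are genes without a box because they do not exist or were not analysed here.

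Of the 31 genes 12 were dim (38.7%, against 28.3% of all genes). By paralog number, 2 of 6 genes of numbers 1 to 3 were dim, 2 of 16 of numbers 4 to 9, and 8 of 9 of numbers 10 to 13. The dim genes of the low numbers were Hoxb1 (3.00 in control and 3.03 in starved cells) and Hoxd1 (3.05 and 2.90), which mark the hindbrain in the embryo. Those in the middle were Hoxd8 (4.06 and 3.91) and Hoxb7 (3.60 and 3.59). Hoxb7 also shares a probe set with Hoxb8, which lay at 8.48 in control and 8.43 in starved cells, so that RNA of at least 1 of the pair was measured clearly above the dim level. At the tail and limb end Hoxa10, Hoxa11, Hoxa13, Hoxb13, Hoxc13, Hoxd10, Hoxd11 and Hoxd12 were dim, with group means from 2.85 to 4.95. Starved and control arrays did not overlap in 17 of the 31 genes (7 above and 10 below), against 52.5% of all genes. Nearest to the dim limit were Hoxc13 inside it (4.95 and 4.72) and Hoxd9 (5.17 and 5.17) and Hoxd13 (5.35 and 5.37) outside it, and none of these 3 passed. Hoxd9 and Hoxd13 were thus the sole genes of cluster D above the limit, and 2 probe sets that name both Hoxd3 and Hoxd4 were dim as well (4.63 and 4.51, 3.55 and 3.65).

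In cluster A the genes called lower were Hoxa2, Hoxa3, Hoxa4 and Hoxa7. Hoxa2, which patterns the second branchial arch and the hindbrain, lay at 6.96, 6.86 and 6.89 in the control arrays and at 6.33, 6.30 and 6.19 in the starved arrays. Every starved array was below every control array, and Hoxa2 fell by 0.63 ± 0.06 (limma adjusted p = 0.000140). Hoxa4 showed the greatest change of any Hox gene, from 6.99, 7.08 and 7.13 in control to 6.22, 6.12 and 6.20 in starved arrays. This fall of 0.89 ± 0.06 (limma adjusted p = 2.7e-05) was 1.85-fold. The gene's other probe set fell as well, by 0.40 ± 0.09, but it was dim in both groups and is marked as open to cross-hybridisation. Hoxa3, needed for the thymus, parathyroid and neck skeleton, fell by 0.25 ± 0.06 in its brighter probe set, from 8.12, 8.07 and 8.16 to 7.84, 7.88 and 7.89. Its other probe set fell by 0.37 ± 0.10, and in both sets the groups did not overlap. Hoxa7, a gene of the thoracic region, was at 8.28, 8.45 and 8.41 in control and at 8.10, 7.87 and 7.98 in starved arrays, a fall of 0.40 ± 0.08 (limma adjusted p = 0.00440).

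The remaining members of cluster A above the dim level are less settled. Hoxa5, which is needed for the lung and the cervical to thoracic skeleton, gave 11.07, 11.18 and 11.22 in control and from 10.96 to 11.01 in starved arrays. The groups did not overlap, but the difference of -0.17 ± 0.06 did not pass (limma adjusted p = 0.0623, 95% interval -0.31 to -0.03). It passed under 7 of 17 alternatives, among them leaving out control replicate 1 (adjusted p = 0.0358), and p ran from 0.00474 to 0.161 over them. Hoxa9, whose product marks the posterior trunk and is also expressed in blood stem cells, had probe sets that differ in call. The brighter one gave 7.10, 7.09 and 6.88 in control and 6.91, 6.97 and 7.05 in starved arrays, with overlapping groups and a difference of -0.04 ± 0.08 (limma adjusted p = 0.699). The other fell by 0.37 ± 0.07, from 6.55, 6.60 and 6.74 to 6.35, 6.20 and 6.23, so Hoxa9 has no settled change. With the mean of its probe sets the gene was called lower (-0.21, adjusted p = 0.00740, range over its alternatives 0.00740 to 0.964). Over all 9 genes of cluster A, starved arrays lay wholly below control arrays in 5 and wholly above in 0, against 26.2% and 26.3% of all genes. The median change of the 6 genes that were not dim was -0.32, against 0.00 for all genes that were not dim.

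**Figure D2:**
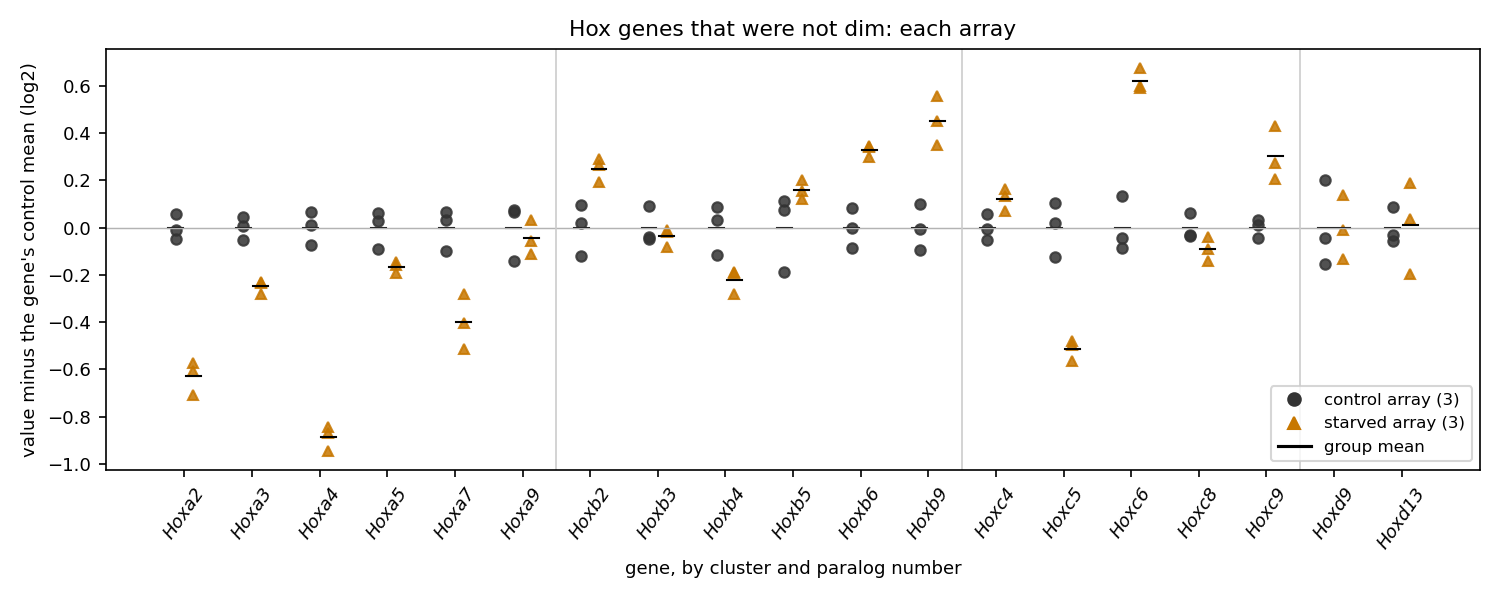
For each of the 19 Hox genes that were not dim, the points are the value in each array minus the mean of the gene's 3 control arrays (log2), circles for control and triangles for starved arrays, with bars at the group means. Starved arrays lie below control arrays from Hoxa2 to Hoxa7, and above them in Hoxb2, Hoxb6, Hoxb9, Hoxc6 and Hoxc9, among others.

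The promoters of genes that fell together are shown to let their sequence be read beside these values. A RefSeq promoter entry (GRCm38.p6) was found for 18 of the 31 Hox genes. It was found for 4 of the 6 genes that were not dim and called lower in every one of their probe sets, and for 0 of the 5 called higher, so rising and falling genes cannot be compared in sequence. Each stretch holds the 250 bases before the annotated start, on the strand of the gene. It was searched on both strands for TGATNNAT (the joint site of PBX and HOX proteins), for CCAAT (the CCAAT box), for TATAAA (the TATA box) and for AGGTCA (the core element bound by retinoic acid and other nuclear receptors), and capitals mark the matches. The stretches are chr6:52164832-52165081 (minus strand) for Hoxa2, chr6:52213068-52213317 (minus strand) for Hoxa3, chr6:52218574-52218823 (minus strand) for Hoxa7 and chr11:96318017-96318266 (plus strand) for Hoxb4.
Hoxa2: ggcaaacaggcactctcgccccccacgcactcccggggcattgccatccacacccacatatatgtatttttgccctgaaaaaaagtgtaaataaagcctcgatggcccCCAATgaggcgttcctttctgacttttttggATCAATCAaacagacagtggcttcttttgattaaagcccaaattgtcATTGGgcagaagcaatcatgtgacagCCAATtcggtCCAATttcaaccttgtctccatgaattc
Hoxa3: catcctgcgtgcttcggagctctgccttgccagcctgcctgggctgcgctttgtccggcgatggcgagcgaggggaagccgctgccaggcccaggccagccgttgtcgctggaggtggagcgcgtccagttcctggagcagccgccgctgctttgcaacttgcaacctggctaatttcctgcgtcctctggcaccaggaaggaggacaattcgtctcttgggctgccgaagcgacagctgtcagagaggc
Hoxa7: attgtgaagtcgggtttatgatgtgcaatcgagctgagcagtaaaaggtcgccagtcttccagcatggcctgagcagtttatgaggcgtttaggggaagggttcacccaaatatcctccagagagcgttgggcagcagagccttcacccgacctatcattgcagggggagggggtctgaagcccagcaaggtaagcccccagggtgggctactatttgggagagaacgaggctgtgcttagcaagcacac
Hoxb4: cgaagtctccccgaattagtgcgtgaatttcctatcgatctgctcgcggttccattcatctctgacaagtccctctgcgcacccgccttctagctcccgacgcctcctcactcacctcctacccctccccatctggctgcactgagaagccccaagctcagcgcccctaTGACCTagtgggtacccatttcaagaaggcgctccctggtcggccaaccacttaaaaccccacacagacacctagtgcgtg
The Hoxa2 stretch held 4 CCAAT matches, 24, 34, 60 and 138 bases before the start, and 1 PBX-HOX match at 104 bases. That of Hoxb4 held 1 receptor element at 76 bases, and those of Hoxa3 and Hoxa7 held no match. Among all 32851 promoter entries cut to the same 250 bases, 33.8% held the CCAAT box, 7.68% the PBX-HOX site, 12.4% the TATA box and 14.0% the receptor element. The 4 stretches also differed in composition: GC content was 46.4% in Hoxa2, 54.8% in Hoxa7, 58.0% in Hoxb4 and 64.8% in Hoxa3, with 6, 7, 14 and 18 CpG pairs. The entry of Hoxa3 lies at a distant start of that gene, beyond Hoxa4, Hoxa5 and Hoxa6 and next to Hoxa7, and the sources used here do not say which of its starts the probe sets follow.

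Cluster B moved in both directions. Hoxb9, which patterns the thoracic skeleton with its paralogs, rose from 7.73, 7.54 and 7.63 in control to 8.19, 8.09 and 7.98 in starved arrays. Every starved array was above every control array, and the rise of 0.45 ± 0.08 (limma adjusted p = 0.00221) was 1.37-fold. Hoxb6 rose by 0.33 ± 0.06 (limma adjusted p = 0.00355), with control arrays at 8.59, 8.50 and 8.67 and starved arrays at 8.93, 8.89 and 8.93. Hoxb2, a hindbrain gene of the head end of the cluster, was at 8.63, 8.41 and 8.55 in control and 8.72, 8.82 and 8.80 in starved arrays. The groups did not overlap and Hoxb2 rose by 0.25 ± 0.07 (limma adjusted p = 0.0237, range over its alternatives 0.00264 to 0.0756). Its call was lost without control replicate 2 (adjusted p = 0.0709), without starved replicate 2 (0.0756) and without starved replicate 3 (0.0681). Hoxb4, known for its part in blood stem cell renewal, fell by 0.22 ± 0.07, from 7.81, 7.66 and 7.87 to 7.50, 7.59 and 7.59 (limma adjusted p = 0.0365). Its other probe set fell by 0.21 ± 0.07. With control replicate 2 left out the brighter set still passed, but not with any other array left out (adjusted p from 0.0667 to 0.110; over its alternatives p ran from 0.0129 to 0.110).

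Between these lie members that did not pass. Hoxb3, expressed in the hindbrain and neck, gave 7.71, 7.85 and 7.71 in control and 7.67, 7.74 and 7.74 in starved arrays, with overlapping groups and a 95% interval of -0.18 to 0.11. Hoxb5 was at 6.61, 6.31 and 6.58 and then at 6.66, 6.70 and 6.62, starved above control in all arrays, with a difference of 0.16 ± 0.09 (limma adjusted p = 0.189). Control replicate 2 was the lowest array in Hoxb2, Hoxb5, Hoxb6 and Hoxb9. Averaged over the 6 genes of cluster B that were not dim, each relative to its mean over all arrays, it lay at -0.16, against -0.03 and -0.04 in the other control arrays and 0.07 to 0.09 in the starved arrays. Without it the changes of Hoxb6 and Hoxb9 still passed. Hoxb13, a gene of the tail end, was dim in both groups (4.29, 4.38 and 4.14, then 3.92, 3.88 and 3.98). It was called lower by 0.35 ± 0.07 (limma adjusted p = 0.00647), a change wholly under the dim level, where 6.58% of all dim genes were called.

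In cluster C, neighbouring genes moved in opposite directions. Hoxc5 lay at 8.92, 9.06 and 9.15 in control and at 8.48, 8.55 and 8.56 in starved arrays, a fall of 0.51 ± 0.07 (limma adjusted p = 0.000816). Hoxc6, the next gene in the cluster and a classical marker of the neck to thorax boundary, went from 8.24, 8.19 and 8.41 to 8.88, 8.96 and 8.87. This rise of 0.62 ± 0.07 (limma adjusted p = 0.000318) was 1.54-fold, and it was the largest rise of any Hox gene measured. The other probe sets of Hoxc6 rose too, by 0.65 ± 0.07 in a set marked as open to cross-hybridisation and by 0.35 ± 0.11 in a weaker set at 5.31, 5.35 and 5.42 in control and 5.45, 5.87 and 5.79 in starved arrays. Hoxc9, a thoracic gene, rose by 0.30 ± 0.07 (limma adjusted p = 0.0104), from 7.85, 7.80 and 7.87 to 8.05, 8.27 and 8.11, with no overlap of the groups.

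Hoxc4 and Hoxc8 did not pass. Hoxc4 was at 10.49, 10.44 and 10.55 in control and 10.57, 10.66 and 10.63 in starved arrays, a difference of 0.12 ± 0.06 (limma adjusted p = 0.138, 95% interval -0.01 to 0.26). Hoxc8, which patterns the lower thorax, was at 8.57, 8.48 and 8.48 and then at 8.42, 8.47 and 8.37, a difference of -0.09 ± 0.06 (limma adjusted p = 0.274, 95% interval -0.23 to 0.05). In both genes the groups did not overlap, but by a small margin. Hoxc13, a gene of hair and nail, was dim with uneven starved arrays (4.41, 5.07 and 4.69, against 5.05, 4.90 and 4.91 in control). Its difference of -0.23 ± 0.15 passed once starved replicate 2 was left out (-0.40, adjusted p = 0.0198; over its alternatives p ran from 0.0198 to 0.694).

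**Figure D3:**
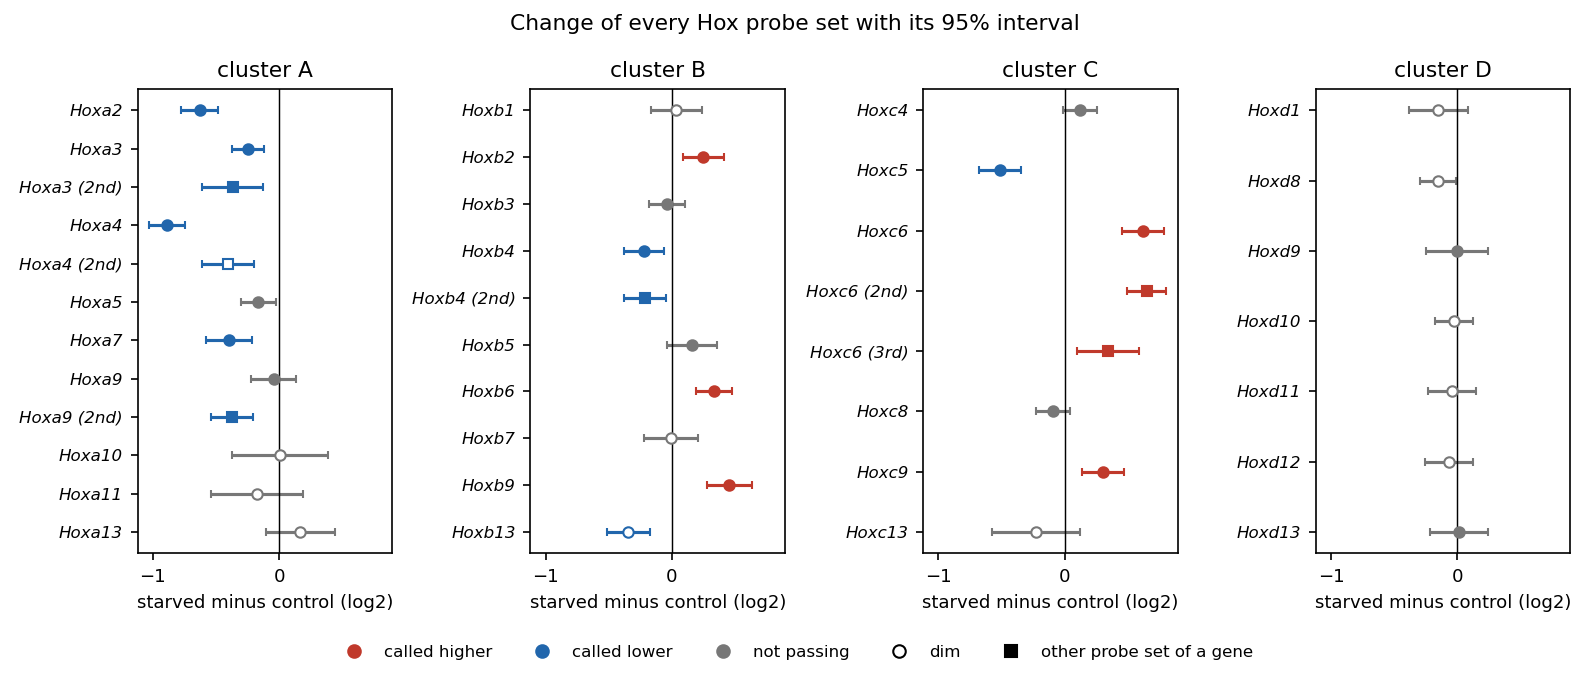
Every Hox probe set is shown with its change (starved minus control, log2) and 95% interval from limma, in 1 panel per cluster and by paralog number from top to bottom. Circles are the brightest probe set of a gene, squares its other probe sets, open symbols dim sets. Probe sets of Hoxa3, Hoxa4, Hoxb4 and Hoxc6 lie on the same side of 0, whereas those of Hoxa9 differ in call.

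No gene of cluster D passed limma's test among the 7 measured, and 1 of 7, Hoxd8, had an unadjusted p under 0.05. Changes in this cluster ran from -0.15 to 0.01. Hoxd8 was at 4.09, 4.06 and 4.03 in control and at 3.87, 3.85 and 4.01 in starved arrays, all dim, with a difference of -0.15 ± 0.06 (limma adjusted p = 0.0894); it passed once starved replicate 3 was left out (adjusted p = 0.0480; over its alternatives p ran from 0.0480 to 0.269). For Hoxd9 and Hoxd13, which shape the limb with their neighbours, the groups overlapped, and the 95% intervals were -0.25 to 0.25 and -0.22 to 0.24.

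Set side by side within paralog groups, genes with the same number moved apart in some groups and together in others. In paralog group 2 Hoxa2 fell by 0.63 while Hoxb2 rose by 0.25. In group 3 Hoxa3 fell by 0.25 and Hoxb3 differed by -0.04. Group 4 held Hoxa4 (-0.89), Hoxb4 (-0.22) and Hoxc4 (0.12, not passing), and group 5 held Hoxc5 (-0.51) with Hoxa5 (-0.17) and Hoxb5 (0.16), neither of which passed. In group 6 Hoxb6 and Hoxc6 were both called higher. In group 9 Hoxb9 (0.45) and Hoxc9 (0.30) rose, Hoxa9 had no settled change and Hoxd9 did not pass (0.00). These differences between paralogs were not tested.

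HOX proteins bind DNA with partners of the TALE homeobox family, the PBX, MEIS and PREP proteins, and TGIF proteins of the same family act as repressors. Of 10 such genes measured, none of them dim, 4 were called higher and 2 lower (60.0%, near the 54.3% of all genes that were not dim). Pbx3 rose by 0.79 ± 0.08, from 6.56, 6.57 and 6.80 to 7.53, 7.39 and 7.36. Tgif1 rose by 0.75 ± 0.05, Tgif2 fell by 0.47 ± 0.08, and Pknox1, which encodes PREP1, rose by 0.33 ± 0.08. Meis2 fell by 0.32 ± 0.07; it was the other member called lower and is named after its value was seen. The count of higher calls dropped to 2 without starved replicate 3, and the call of Pknox1 was among those lost (adjusted p = 0.0532, range over its alternatives 0.00250 to 0.0710). Pbx2 differed by 0.12 ± 0.05 without passing in its brightest probe set, while its other probe sets rose.

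Retinoic acid switches on head-side Hox genes in the embryo through its receptors, and cells control it by synthesis, binding proteins and breakdown. Of 15 genes of this pathway measured, 7 were called lower and 2 higher, and of the 11 that were not dim 81.8% were called, against 54.3% of all genes that were not dim. Over those 11 genes the median change was -0.43 and the median absolute change 0.90, against 0.25 for the Hox genes that were not dim. Rarb, the receptor gene that is itself a standard target of retinoic acid, fell by 2.42 ± 0.09 (limma adjusted p = 1.9e-06). It lay at 7.30, 7.45 and 7.17 in control arrays and at 4.79, 4.97 and 4.91, just under the dim level, in starved arrays. Dhrs3, an enzyme that turns retinaldehyde back to retinol and is likewise induced by retinoic acid, fell by 1.66 ± 0.05, from 9.99, 9.94 and 9.89 to 8.27, 8.30 and 8.28. Crabp1, a cellular binding protein of retinoic acid, fell by 1.57 ± 0.06. On the other side Aldh1a1, which makes retinoic acid from retinaldehyde, rose by 1.30 ± 0.06, from 7.70, 7.72 and 7.67 to 8.98, 8.94 and 9.07, and the receptor gene Rxrb rose by 0.59 ± 0.06.

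The other 4 members called lower are named after their values were seen. Rdh10, which makes retinaldehyde, fell by 1.15 ± 0.09 and the binding protein gene Crabp2 by 0.90 ± 0.06, while Rara fell by 0.43 ± 0.12. Rxra has no settled direction: 1 probe set fell by 0.41 ± 0.07 and another rose by 0.30 ± 0.09. Rarg differed by -0.03 ± 0.06 without passing. The synthesis genes Aldh1a2 and Aldh1a3 and the breakdown gene Cyp26a1 were dim in both groups. Counts of this list stayed at 7 to 8 lower and 2 higher when any array was left out. Whether the retinoic acid genes have a part in the Hox changes was not tested.

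Polycomb proteins keep Hox genes silent outside their domains. Of 25 measured genes of these complexes, none of them dim, 13 were called higher (52.0%) and 2 lower. Of all genes that were not dim 28.1% were called higher and 26.3% lower, and the share called in all, 60.0%, lies near the 54.3% of those genes. Ezh2, the methyltransferase of the complex that writes the repressive histone mark, rose by 1.24 ± 0.07, from 8.90 ± 0.10 to 10.14 ± 0.05 (SD, n = 3 each), with no overlap of the groups. Its paralog Ezh1 rose by 0.81 ± 0.10, Aebp2 by 0.44 ± 0.05 and Phf1 by 0.41 ± 0.08. Jarid2 (-0.27 ± 0.08) and Yaf2 (-0.29 ± 0.06) were the 2 called lower, named after their values were seen, and of the other probe sets of Jarid2 1 was also called lower (-0.26 ± 0.06) and 1 did not pass (-0.19 ± 0.13). Rbbp4, a histone-binding subunit, did not pass in its brightest probe set (0.12 ± 0.05) although its other probe sets rose. With 1 array left out the higher calls were 9 to 11, and the lower calls were 1 without control replicates 2 or 3 or starved replicates 1 or 2.

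Trithorax proteins of the MLL complexes keep Hox genes active, and 7 of their 13 measured genes were called higher and 2 lower (69.2% called, against 54.3% of all genes that were not dim; none of the 13 was dim). Ash2l, a core subunit, rose by 0.75 ± 0.06, Hcfc1 by 0.71 ± 0.11, the chromatin tether gene Psip1 by 0.58 ± 0.07 and Kmt2a, which encodes MLL1, by 0.57 ± 0.11. Kmt2a was at 7.27, 7.26 and 7.62 in control and at 8.08, 7.97 and 7.80 in starved arrays, the third control array being closest to the starved ones. Menin, the product of Men1, joins MLL1 to Hox genes; Men1 fell by 0.55 ± 0.07 and Paxip1 by 0.24 ± 0.08, and both are named after their values were seen. Of the other probe sets of Paxip1, 1 dim set was also called lower (-0.38 ± 0.06) and 2 did not pass. On leaving out control replicate 1 or 3 or starved replicate 2 or 3, 1 of these 2 lower calls remained. Among the caudal genes and other Hox regulators, 2 of 10 were called higher (20.0%, against 20.8% of all genes) and 0 lower in limma's test, also 0 lower at an unadjusted p under 0.05. These were Gmnn, which encodes the Hox-binding replication inhibitor geminin (0.59 ± 0.07), and Egr2, a hindbrain regulator of Hox genes (0.41 ± 0.07).

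Other genes that mark position or limb and facial mesenchyme were measured beside the Hox genes. Of 54 such homeobox, T-box and related genes 28 were dim (51.9%, against 28.3% of all genes). Among them were the limb genes Tbx4 (4.10 in control and 4.16 in starved cells), Tbx5 and Pitx1. Other members, such as Shox2 (6.15 and 6.26), Msx1 (6.72 and 6.50) and Tbx15 (7.36 and 7.58), were not dim. Of all 54, 4 were called higher (7.41%, against 20.8% of all genes) and 11 lower (20.4%, against 20.1%), dim genes included. Of the 26 that were not dim 3 were called higher and 8 lower. That is 42.3% called, against 54.3% of all genes that were not dim. Twist2, a repressor of mesenchymal differentiation, fell by 1.26 ± 0.06, from 10.24 ± 0.07 to 8.98 ± 0.02 (SD, n = 3 each). Prrx2, a homeobox gene of limb and facial mesenchyme, fell by 1.06 ± 0.06 and the forkhead gene Foxd1 by 0.97 ± 0.06, while Irx3 fell by 0.95 ± 0.15. Its starved arrays were uneven at 5.83, 6.35 and 6.40, against 7.25, 7.05 and 7.14 in control. Prrx1, the paralog of Prrx2, rose by 0.51 ± 0.06, and Pax1, a gene of the vertebral column, differed by 0.05 ± 0.06 without passing.

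**Figure D4:**
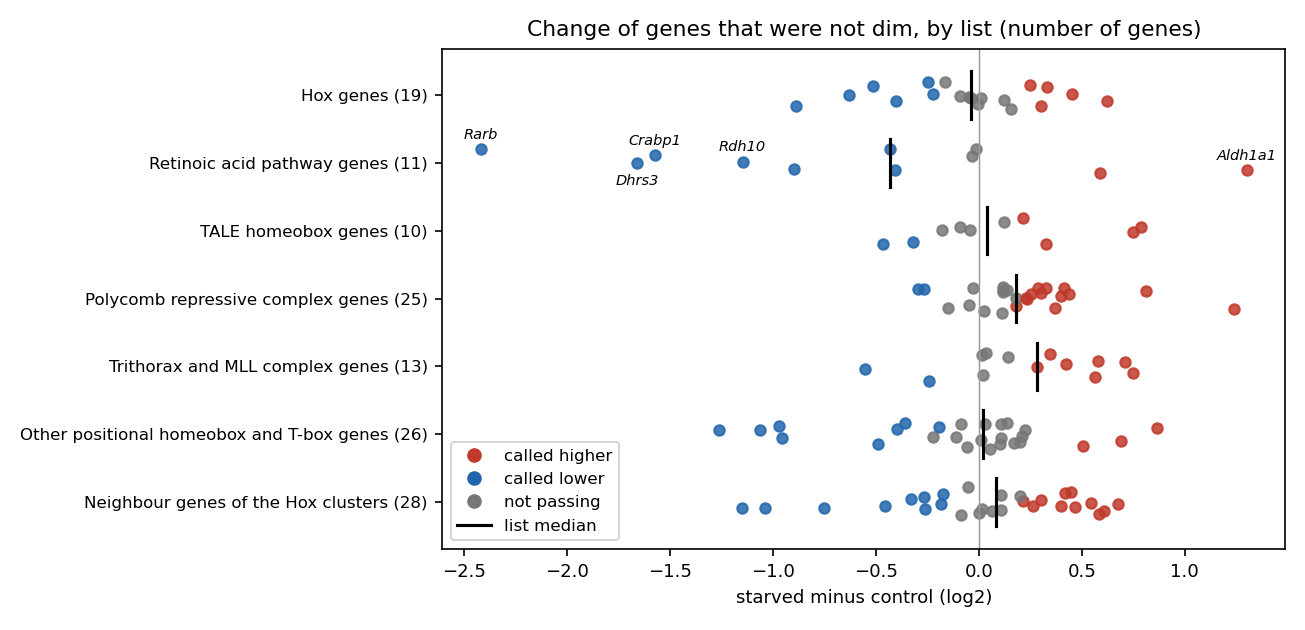
Points are genes that were not dim, by list, at their change (starved minus control, log2), coloured by call, with a bar at the list median. The Hox changes lie within -0.89 to 0.62, and the points farthest from 0 are in the retinoic acid pathway, with Rarb at -2.42 and Aldh1a1 at 1.30.

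The chromosomal neighbours of the clusters were compared with the clusters themselves, as the 4 nearest measured protein-coding genes on either side of each. Of these 32 genes 11 were called higher and 10 lower (65.6%, against 40.8% of all genes). Of the 28 that were not dim 11 were called higher and 9 lower (71.4%, against 54.3% of all genes that were not dim). Beside cluster A, the flanking gene Skap2 on the head side differed by 0.11 ± 0.05 and Hibadh on the tail side by 0.00 ± 0.05, neither passing, and Evx1, a homeobox gene at the tail end of the cluster, was dim. The next head-side gene, Snx10, rose by 0.68 ± 0.06, whereas Hoxa2 to Hoxa4 at that end of the cluster fell. Also on the head side, Hnrnpa2b1 fell by 0.18 ± 0.05 in its brightest probe set, while its other probe sets did not pass. On the tail side Tax1bp1 rose by 0.61 ± 0.06 in its brightest probe set, and its other probe sets did not pass. Beside cluster D, whose own genes did not pass, Ttc30a1 fell by 1.15 ± 0.10 and Ttc30b by 1.04 ± 0.09, and Mtx2, the nearest measured gene on the side of Hoxd1, fell by 0.27 ± 0.06. On the tail side of cluster D, Evx2 did not pass (0.20 ± 0.10), while Atf2 rose by 0.42 ± 0.05, as did its other probe sets. The neighbours of clusters B and C are in the counts above but are not named. Tril, the fourth neighbour on the tail side of cluster A, fell by 0.75 ± 0.15 in its brightest probe set, a call lost without moderation. Its other probe set fell by 1.44 ± 0.18, so the size of the fall is not settled. Hoxa11os, the antisense transcript of Hoxa11, was the single non-coding transcript of the clusters measured, and like Hoxa11 it was dim and did not pass (3.65 in control and 3.80 in starved cells).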

How the data were processed

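Biotin-labelled cRNA from total RNA of 3 starved and 3 control samples was hybridised to Affymetrix mouse arrays. The deposited values are log2 levels per probe set, made by the authors with affy and RMA, per the submitters' processing notes, which name no version. RMA gives every array the same distribution, which hides any shift common to most transcripts, and the values carry no detection calls. The number of arrays limits the precision.

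Of 22690 rows 64 control probe sets were set aside. The platform annotation gave 20380 probe sets 1 gene, 691 several genes, which were not used as genes, and 1555 none; symbols were checked through Entrez identifiers against RefSeq. A gene was represented by its brightest probe set over all arrays. Groups came from the titles. All 22626 probe sets entered 1 two-sided fit without covariates (lmFit and eBayes of limma 3.58.1, R 4.3.3), with Benjamini-Hochberg adjustment and a threshold of 0.05, tested on simulated data. The members and gene lists were chosen with earlier results of these data known, and no p is given for a list. Every Hox gene could be named. In each other list the rule took at most 4 called members, those that changed most. It also took at most 2 of the brightest remaining members, and some of these are left unnamed. Other genes named beyond this rule were picked with their values known. They include neighbours of the clusters, positional genes and dim retinoic acid genes. Alternatives were 2 normalizations, 2 filters on dim probe sets, other moderation, array weights, other choices of probe set, adjustment over genes, stricter thresholds, a replicate block and the omission of each array in turn; applying them to the other lists was chosen after seeing the data. No pairing of the samples by replicate number was seen. Plots were made in Python 3.11.15 with matplotlib 3.10.9.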

Additional observations from a re-analysis of the deposited data

How the results depend on the processing

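Across the alternatives in normalization, moderation, probe set choice, filters and block, the count of Hox genes called higher stayed at 4 to 6 and that called lower at 6 to 9. An adjusted p of 0.01 left 3 higher. Asking for a change of at least 0.5 as well left 1 higher (Hoxc6) and 3 lower (Hoxa2, Hoxa4 and Hoxc5), and 3180 of the 8933 probe sets called over the whole array. Leaving out 1 array gave 4 to 5 higher, 6 to 7 lower and 7691 to 8394 probe sets called. The 2 alternatives that work on genes give no count of probe sets. No Hox gene called under any alternative reversed its direction. Hoxa2, Hoxa3, Hoxa4, Hoxa7, Hoxb6, Hoxb9, Hoxb13, Hoxc5, Hoxc6 and Hoxc9 kept their call under every alternative in which they were measured other than the 2 stricter thresholds. Without moderation and with the replicate block, the calls of Hoxb2 (adjusted p = 0.0639 and 0.0555) and Hoxb4 (0.0799 and 0.0619) were lost. The block left 4 Hox genes called higher, 6 lower and 8168 probe sets. Deviations of arrays with the same number correlated at -0.09, 0.01 and -0.01, and those of arrays with different numbers at -0.08 to 0.09. No pairing by number was thus seen, though 3 arrays per group cannot exclude it. Hoxc4 was called with an intensity trend and robust moderation (adjusted p = 0.0352, range over its alternatives 0.0352 to 0.320). In the other lists, lower calls among positional genes dropped from 11 to 6 without moderation or among genes of at least 6 in either group. Over all alternatives, the 2 stricter thresholds included, Polycomb genes called higher ran from 2 to 14 and lower from 0 to 3. Trithorax genes called higher ran from 4 to 8 and lower from 1 to 2. For the neighbours of the clusters the ranges were 4 to 12 higher and 3 to 10 lower. Changes under the dim level, such as that of Hoxb13, are limited by signal close to background.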
